A study of Mus musculus with 6 samples.

Results

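The 10 genes described here encode parts of secreted antibody or mark B cells. A total of 7 are antibody transcripts: Jchain (older symbol Igj), the heavy chain constant regions Igha, Ighm and Ighg3, and the light chain variable segments Igkv9-120, Igkv8-30 and Iglv1. The other 3, Cd79a, Cd79b and Ms4a1, mark B cells. The genes were chosen by name, with their measured differences between bleomycin and saline lungs already in view. Those differences are therefore given as a description, with a standard error and no p-value, and where a gene is said to have passed the test run over all probe sets, that too is a description. All 10 are among the 12393 genes that the array names by a probe set with 1 gene symbol. A probe set is a group of short probes read as 1 value, and each gene was read through its brightest probe set over the 6 arrays.

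Lungs of wildtype male C57BL/6J mice, 8 to 10 weeks old, were measured on Affymetrix MOE430A arrays at day 14. A total of 3 mice (arrays A, B and C) had received saline, and 3 (D, E and F) had received bleomycin, a DNA-damaging drug used to model lung fibrosis, at 1 mg/kg in 50 µl of saline. The design text gives an oropharyngeal route and the source labels an intratracheal one. RNA came from pulverised lobes without the trachea and major airways, so a lower level can mean fewer cells of a type or less RNA per cell, and these cannot be told apart.

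B cells carry antibody on their surface, held in a receptor whose signalling chains are CD79A and CD79B, and CD20, the product of Ms4a1, is another of their surface proteins. When a B cell matures into a plasma cell it loses CD20 and much of the receptor, and turns to making antibody for secretion. Secreted IgA and IgM are joined into polymers by the J chain, which the receptor PIGR then carries across mucosal epithelium. IgG does not contain the J chain.

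Array B goes against its label. Its value for Xist, the transcript of the inactive X chromosome, was 11.40, against 7.23 to 7.88 on the other 5 arrays, and the Y-linked Eif2s3y stood at 4.05 against 7.23 to 8.02. Differences of the 10 genes without the library labelled saline B are therefore given too. All 8 lung markers listed were bright, with a mean between 11.99 and 12.50 on each array, and the surfactant gene Sftpc lay between 13.98 and 14.38. The array medians lay between 7.37 and 7.41 in log2 units.

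Most of the antibody transcripts were higher in bleomycin lungs, and the 3 B cell markers were not. Of the 7 antibody transcripts, 6 had all bleomycin arrays above all saline arrays, and 5 passed the threshold of the test over all probe sets (adjusted p of 0.05 in limma). None of the 3 B cell markers passed or separated the groups, and 0 did at an unadjusted p under 0.05. Over all genes, 3.70% (458) were called higher and 1.90% (236) lower, while 13.3% had all bleomycin arrays above the saline arrays and 14.6% had all below. Centring on ribosomal protein genes turned that split to 306 higher and 378 lower genes. At an unadjusted p under 0.05, 1456 of all 12393 genes were higher and 1363 lower. Counts of this kind in the lists below stand beside these. Because the 10 genes were chosen on this contrast, nothing is read from their counts. The median difference was 1.94 log2 units for the antibody transcripts and -0.44 for the B cell markers, against -0.04 for all genes.

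**Figure D1:**
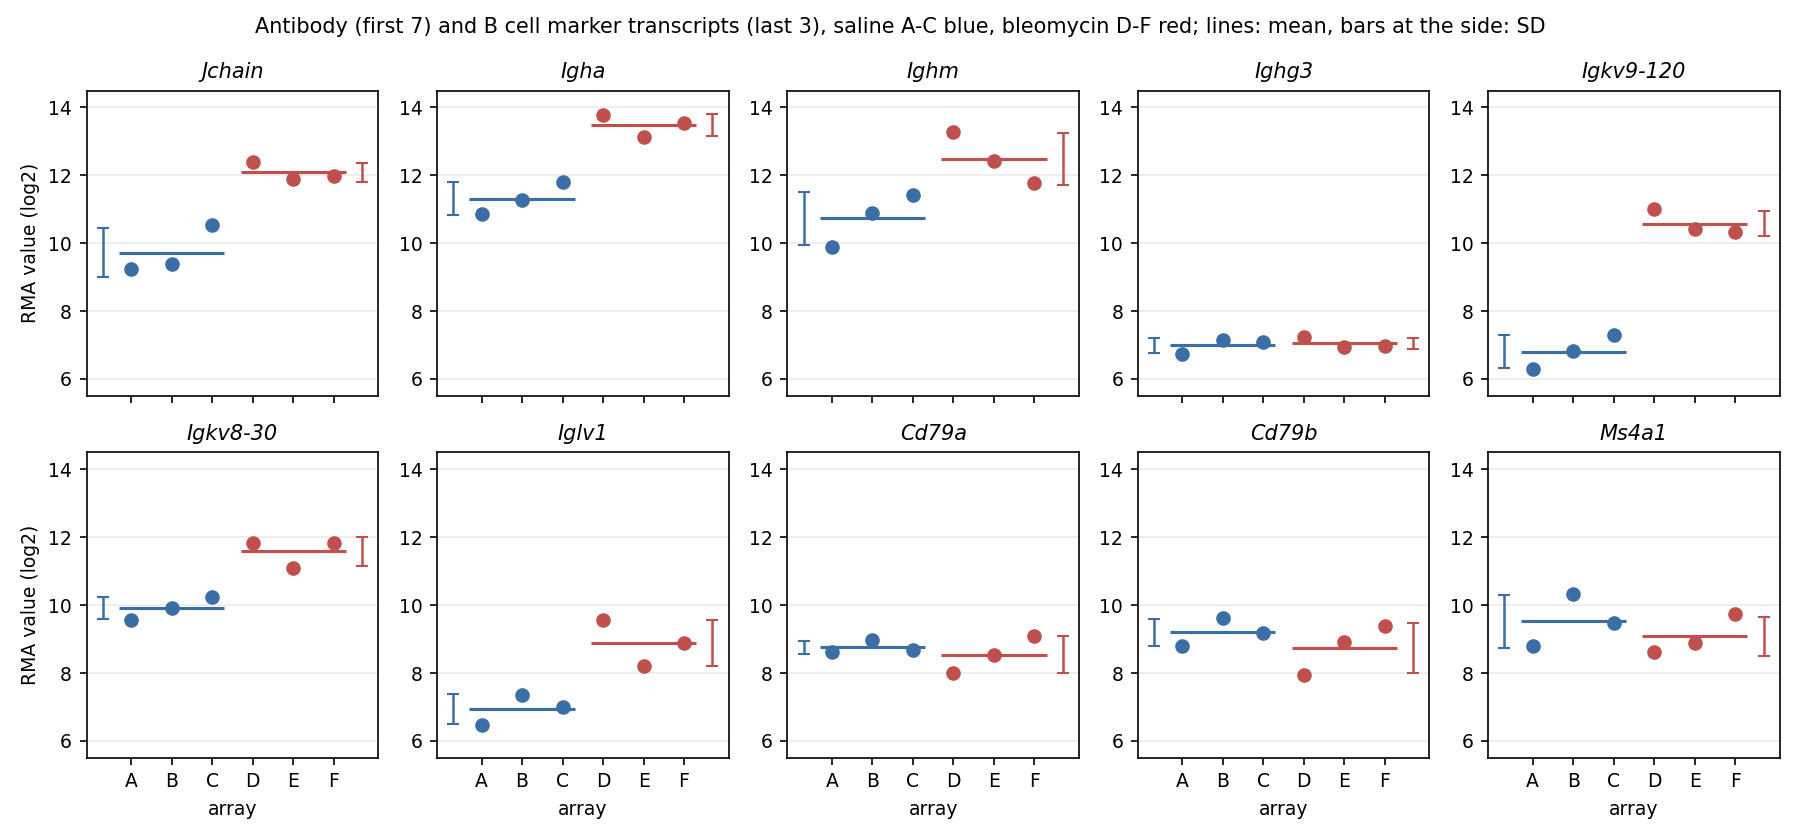
RMA value (log2) of each of the 10 genes on each array, with saline lungs A to C in blue and bleomycin lungs D to F in red; lines are group means and the bars at the side are 1 SD (n = 3). The antibody transcripts other than Ighg3 sit higher on D, E and F, and the 3 B cell markers overlap between groups; heights of different genes are not comparable.

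Jchain, the chain that joins IgA and IgM, stood at 9.24, 9.38 and 10.54 in the saline lungs and at 12.40, 11.88 and 11.99 in the bleomycin lungs, in log2 units. Every bleomycin lung lay above every saline lung, and saline C was nearest to them. The difference was 2.37 ± 0.32 log2 units (SE, n = 3 each), which is 5.16-fold. Without saline B it was 2.19, and over the 6 fits with a single array left out it ran from 2.13 to 2.78. Jchain has 1 named probe set, so no other reading of it exists on this array.

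Promoter sequence of 2 of the 10 genes is held in the RefSeq table of build GRCm38.p6, for Jchain and Cd79a. They are shown because both are B lineage genes, of which Jchain separated the groups and Cd79a did not. The 250 bases before each start site are given 5′ to 3′ on the gene's strand, chr5:88527898-88528147 (minus strand) for Jchain and chr7:24897247-24897496 (plus strand) for Cd79a. Capitals mark matches, on either strand, to the letters of 4 motifs: the octamer ATGCAAAT of immunoglobulin promoters, the E-box CAGNTG, an Ets core AGGAAG and the TATA box TATAAA.
Jchain: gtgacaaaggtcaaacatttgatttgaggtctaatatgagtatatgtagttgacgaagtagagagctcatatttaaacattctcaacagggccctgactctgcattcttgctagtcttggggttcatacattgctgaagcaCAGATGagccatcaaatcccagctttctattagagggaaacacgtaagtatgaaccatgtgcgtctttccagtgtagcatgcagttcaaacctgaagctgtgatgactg
Cd79a: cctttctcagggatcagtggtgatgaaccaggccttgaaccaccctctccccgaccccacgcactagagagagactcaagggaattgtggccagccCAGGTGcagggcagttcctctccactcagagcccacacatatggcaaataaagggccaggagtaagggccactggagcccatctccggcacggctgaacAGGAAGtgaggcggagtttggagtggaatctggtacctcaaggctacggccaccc

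Neither stretch held the octamer letters or the TATA box, which 1.60% and 12.4% of the 32851 promoters of that length in the table held. Each held 1 E-box, as did 44.8% of all promoters, from 109 to 104 bases before the start in Jchain and from 154 to 149 in Cd79a. Cd79a also held AGGAAG from 55 to 50 bases before the start, as did 29.5% of all promoters. No 2 matches overlapped. These are matches of letters only.

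Igha encodes the heavy chain constant region of IgA, the antibody class of mucosal surfaces. Its values were 10.85, 11.28 and 11.80 after saline and 13.78, 13.14 and 13.56 after bleomycin. The groups were again apart, with a difference of 2.18 ± 0.25 log2 units (SE, n = 3 each), or 4.54-fold. Its 3 probe sets gave 2.18, 2.37 and 2.09, and all of them passed. Without saline B the difference was 2.31. These are among the brightest signals in the table, whose largest value is 14.42, and saturation could not be examined without scanner files.

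Ighm, the heavy chain constant region of IgM, is both the receptor of resting B cells and a secreted antibody. Its brightest probe set read 9.89, 10.90 and 11.43 after saline and 13.27, 12.41 and 11.76 after bleomycin. The groups did not overlap, but bleomycin F lay only 0.33 above saline C, and the difference of 1.74 ± 0.44 log2 units (SE, n = 3 each) did not pass the threshold. It ran from 1.31 to 2.10 with a single array left out and was 1.82 without saline B. It passed when dim probe sets were left out, and also when the 11 probe sets of Ighm were averaged, which lowered the difference to 0.77.

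The 11 probe sets of Ighm disagreed in size. Their differences ran from 0.02 to 2.26 log2 units, with a median of 0.58. In 7 of them all bleomycin arrays lay above the saline arrays, and 2 were called higher. The largest difference belonged to a probe set that read 6.69, 7.54 and 8.20 after saline and 10.35, 8.99 and 9.88 after bleomycin. Immunoglobulin genes are rearranged and share sequence, so probe sets annotated to one gene need not measure the same transcripts.

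Ighg3 encodes the constant region of IgG3 and gave the smallest difference of the 7 antibody transcripts. It read 6.75, 7.16 and 7.09 after saline and 7.23, 6.95 and 6.98 after bleomycin, so the groups overlapped. The difference was 0.06 ± 0.14 log2 units (SE, n = 3 each), with a 95% interval from -0.27 to 0.38. Its 4 probe sets gave differences between -0.06 and 0.06. The other 3 probe sets had means of 3.95 to 4.70, near the lowest value of the table (3.54), and detection calls are not used here. Without saline B the difference was 0.14. A difference in a transcript that these probe sets do not detect would not be seen.

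The light chain segments differed most in Igkv9-120, a kappa variable segment. It read 6.30, 6.82 and 7.30 after saline and 11.00, 10.41 and 10.32 after bleomycin. The lowest bleomycin lung stood 3.02 log2 units above the highest saline lung, the widest gap of the 10 genes, and the difference was 3.77 ± 0.26 (SE, n = 3 each), or 13.7-fold. Without saline B it was 3.78. That value rests on 1 of 3 probe sets. The other 2 gave 0.07 and -0.05, with means of 5.89 and 4.78.

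Igkv8-30, another kappa variable segment, read 9.57, 9.92 and 10.23 after saline and 11.82, 11.09 and 11.84 after bleomycin. Its single named probe set gave a difference of 1.68 ± 0.23 log2 units (SE, n = 3 each), 3.20-fold, with no overlap, and the same 1.68 without saline B. Iglv1, a lambda variable segment, read 6.46, 7.34 and 7.01 after saline and 9.55, 8.22 and 8.87 after bleomycin. The groups were apart by 0.87, and the difference was 1.94 ± 0.33 (SE, n = 3 each), or 3.85-fold, and 2.15 without saline B. A second, dimmer probe set of Iglv1 gave -0.17. Iglv1 did not pass without saline A, saline C or bleomycin F, and its difference ran from 1.61 to 2.28 over the 6 fits that each left out an array.

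The brightest probe sets of Igkv9-120, Igkv8-30 and Iglv1 have names ending in _x_at or _s_at, which mark probes shared with other sequences. Their values may therefore include related light chain transcripts and cannot be credited to a single segment. The brightest probe sets of Igha and Ighm carry these endings too. Without all such probe sets, Igkv8-30 had no value, Igkv9-120 read -0.05 and Iglv1 read -0.17 through their remaining dim probe sets. Igha still differed by 2.09, Jchain by 2.37 and Ighm by 1.11. Jchain and Igha were then the 2 antibody transcripts that passed, of 6 measured.

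Over all 25 probe sets of the 7 antibody transcripts, 9 were called higher and 0 lower, against 3.29% of all probe sets called higher. The larger differences lay mostly with the brighter ones. Of the 12 above the median level of all probe sets (7.40), 12 had all bleomycin arrays above the saline arrays, with a median difference of 2.02 log2 units. Of the 13 at or below it, 2 did, with a median of 0.06. The level is the mean over all 6 arrays, so a higher value after bleomycin itself raises it.

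**Figure D2:**
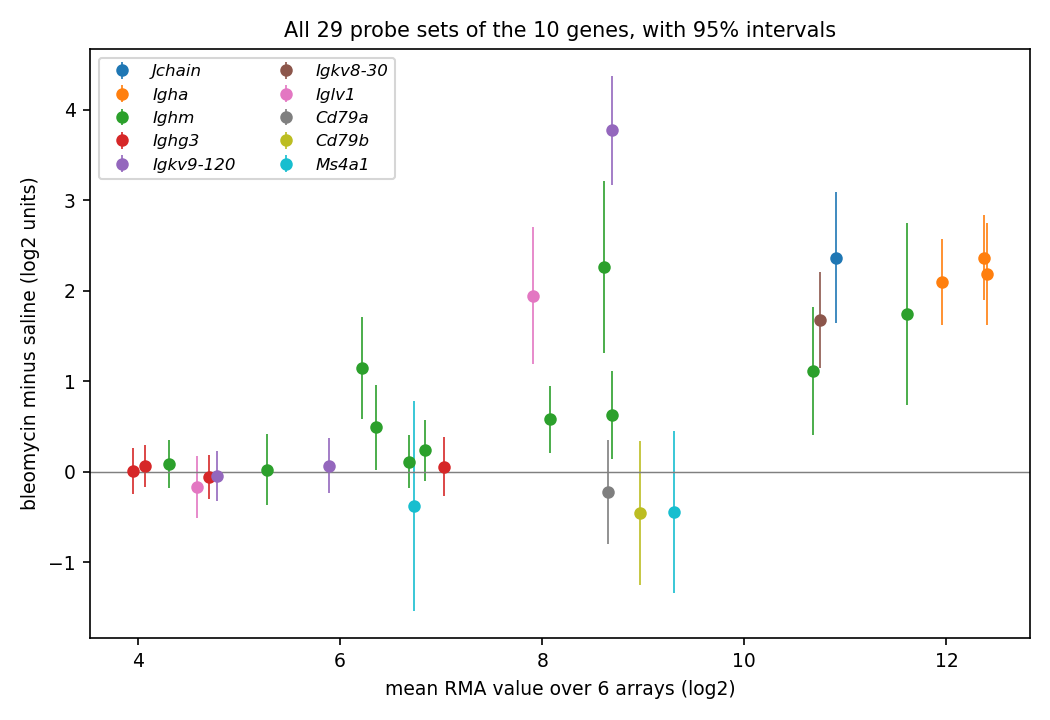
Difference between bleomycin and saline (log2 units, 95% interval) of each of the 29 probe sets of the 10 genes against its mean RMA value over the 6 arrays (log2), coloured by gene. Probe sets of one antibody gene differ in size, and most of those with low values lie near 0; the 4 probe sets of the B cell markers lie below 0 with intervals that span it.

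A further 13 immunoglobulin probe sets carry several gene symbols and were credited to no gene. Of these, 3 were called higher and 0 lower, and 7 had all bleomycin arrays above the saline arrays. Among them are 3 very bright kappa probe sets with 5 symbols each, including Igkv8-30 and the kappa constant region. The brightest read 11.47, 11.95 and 12.40 after saline and 13.47, 13.05 and 13.26 after bleomycin, a difference of 1.32 that passed. The other 2 gave 0.48 and 0.62 and did not pass. A probe set with 2 lambda symbols, 1 of them Iglv1, gave 1.19 and passed. The heavy chain probe sets, which list Ighm and in part Ighg3, gave between -0.02 and 0.29, and none passed. They are dim, with means of 4.55 to 5.67, under the lower quartile of all probe sets (5.98), where a difference may not be seen.

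The B cell markers lay in a narrower range, with overlapping groups. Cd79a, a signalling chain of the B cell receptor, read 8.62, 8.98 and 8.68 after saline and 7.99, 8.53 and 9.09 after bleomycin. Bleomycin lungs held both its lowest and its highest value. The difference was -0.22 ± 0.25 log2 units (SE, n = 3 each), with a 95% interval from -0.79 to 0.35. It was -0.11 without saline B and 0.05 without bleomycin D, which turns its sign.

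Cd79b, the partner chain, read 8.81, 9.62 and 9.17 after saline and 7.94, 8.91 and 9.39 after bleomycin. Bleomycin D was the lowest of the 6 and saline B the highest. The difference was -0.45 ± 0.35 log2 units (SE, n = 3 each), with a 95% interval from -1.25 to 0.34. It was -0.24 without saline B and -0.05 without bleomycin D.

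Ms4a1, which encodes CD20, read 8.78, 10.33 and 9.46 after saline and 8.63, 8.89 and 9.73 after bleomycin. Saline B was again the highest and bleomycin D the lowest, although saline A was close to D. The difference was -0.44 ± 0.39 log2 units (SE, n = 3 each), with a 95% interval from -1.34 to 0.45, and -0.04 without saline B. Its second probe set gave -0.38. All 3 intervals hold both lower and higher levels, so the arrays do not show that B cell transcripts were unaltered.

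The order of the lungs was not the same in the 2 groups of genes after bleomycin. Bleomycin D had the highest value of all 6 arrays in 6 of 7 antibody transcripts and the lowest of all 6 in 3 of 3 B cell markers. Bleomycin F had the highest B cell values of the bleomycin lungs in 3 of 3 markers, and bleomycin E the lowest antibody values of those lungs in 5 of 7 transcripts. Saline A was the lowest saline lung for all 7 antibody transcripts and for all 3 B cell markers.

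Taken as the distance of Jchain from its saline mean minus that of Cd79b, bleomycin D stood at 3.94, E at 2.45 and F at 2.07 log2 units. The saline lungs stood at -0.09 (A), -0.76 (B) and 0.85 (C). All 3 bleomycin lungs lay above the saline lungs on this scale, as they did for Jchain alone. Both genes were chosen with this contrast known, so this order is a description. The median antibody difference exceeded the median B cell difference by 2.39 log2 units with all arrays, by 2.26 without saline B and by 1.66 without bleomycin D.

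**Figure D3:**
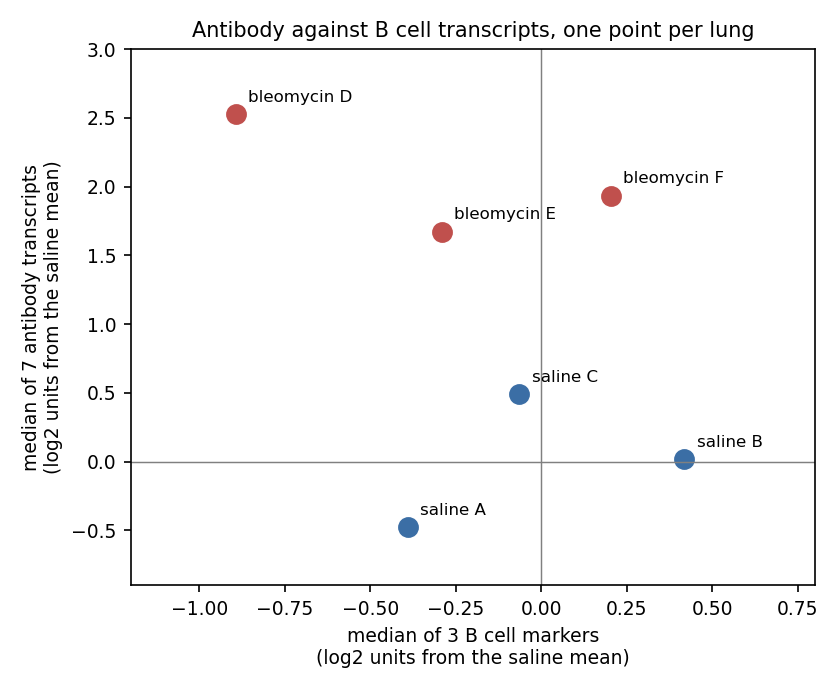
Median of the 7 antibody transcripts against median of the 3 B cell markers in each lung, both in log2 units from the saline mean of each gene (saline blue, bleomycin red). The bleomycin lungs lie between 1.67 and 2.53 on the antibody axis but spread from -0.89 to 0.20 on the B cell axis, within which saline A (-0.39) and saline C (-0.06) also fall.

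The gene lists that follow were also chosen with earlier results of these data known, so their counts are a description. Of 40 other B cell genes listed, 32 were measured, of which 2 rose and 2 fell in limma, with a median difference of -0.11 log2 units. At an unadjusted p under 0.05, 6 were higher and 5 lower, beside 1456 and 1363 of all 12393 genes. Those that rose were Ly86, the partner of the receptor CD180, from 9.21, 9.74 and 9.90 to 11.04, 10.59 and 10.87 (difference 1.21, limma adjusted p = 0.0134), and the kinase gene Syk (0.69, limma adjusted p = 0.0115). Myeloid cells express both as well. Ly86 did not pass without bleomycin F, nor Syk without saline A or bleomycin F. Those that fell were Ralgps2, through 1 of its 3 probe sets (-0.76, limma adjusted p = 0.0333) and Vpreb3 (-0.58, limma adjusted p = 0.0344), an assembly factor of the B cell receptor. Ralgps2 passed in none of the 6 fits with a single array left out, and Vpreb3 passed only without saline C.

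Ebf1, a transcription factor that sets B cell identity, read 7.32, 7.64 and 6.96 after saline and 6.14, 6.50 and 6.89 after bleomycin (difference -0.80, limma adjusted p = 0.0809). The kinase gene Blk differed by -0.68 (limma adjusted p = 0.181) and the factor Pax5 by 0.02. Pax5 lay between 5.45 and 5.98, and its probe set was dropped by the filter on dim probe sets, so a difference may not be seen. The list had 2 higher and 0 lower without bleomycin D, 3 and 0 without saline B, 1 and 1 without saline A, and 0 and 0 without bleomycin F.

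No gene of the plasma cell list passed. It held 15 measured genes, with 0 called in limma, 2 higher and 2 lower at an unadjusted p under 0.05, and a median difference of 0.10. Prdm1, the factor that drives plasma cell formation, read 7.83, 7.46 and 7.39 after saline and 6.65, 6.86 and 7.46 after bleomycin (-0.57, limma adjusted p = 0.169). Slamf7, a surface receptor of plasma cells and other leukocytes, differed by 0.50 (limma adjusted p = 0.0817). Irf4 differed by 0.18, the secretory regulator Xbp1 by -0.05, Sdc1, which encodes CD138, by 0.30, and Tnfrsf17, the survival receptor BCMA, by 0.23. Tnfrsf17 lay between 5.18 and 5.78, under the lower quartile of all probe sets (5.98), where a difference may not be seen. Without _x_at and _s_at probe sets Xbp1 differed by 0.29 and did not pass. Lung epithelium expresses Xbp1 and Sdc1 too, and their values of 12.07 to 12.34 and 11.07 to 11.73 were high on all arrays.

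Genes of the protein folding and secretion machinery of the endoplasmic reticulum, on which antibody secretion depends in common with all secreting cells, had a median difference of 0.41 log2 units. Of 25, 2 rose and 0 fell, while 10 had all bleomycin arrays above the saline arrays and 2 all below. At an unadjusted p under 0.05, 14 were higher and 1 lower, beside 1456 and 1363 of all 12393 genes. The disulfide isomerase Pdia6 rose by 0.71 (limma adjusted p = 0.0391) and the chaperone cofactor Dnajb11 by 0.59 (limma adjusted p = 0.0292). Averaged over its 2 probe sets, Pdia6 differed by 0.18 and did not pass. Sdf2l1 differed by 0.88 and Creld2 by 0.74, and neither passed. No gene of the list passed when saline A, when saline B, when bleomycin D or when bleomycin F was left out, or with arrays centred on ribosomal protein genes, while the median stayed between 0.31 and 0.42 in the 6 fits with a single array left out.

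Among 18 measured genes of B cell attraction, survival and class switching, 1 rose and 0 fell, with a median of 0.01. The one that rose was Mki67, a marker of dividing cells of any kind (1.55, limma adjusted p = 0.00593). Cxcl13, the chemokine that draws B cells into follicles, read 7.28, 8.10 and 8.01 after saline and 8.97, 7.96 and 8.04 after bleomycin. At this probe set it was high in bleomycin D alone, with a difference of 0.53 (limma adjusted p = 0.352). Averaged over its 2 probe sets, Cxcl13 differed by 0.98 and did not pass. Il6, a cytokine that supports plasma cells, read 4.63, 5.02 and 4.85 after saline and 6.68, 5.15 and 5.43 after bleomycin. It was highest in D, and every bleomycin lung lay above every saline lung (difference 0.92, limma adjusted p = 0.172). Its probe set is dim and was dropped by the filter on dim probe sets. Tnfsf13b, which encodes the B cell survival factor BAFF, differed by -0.05.

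Of 9 genes that bind or carry antibody, 5 rose and 0 fell, beside 3.70% of all genes called higher and 1.90% lower. Pigr, the carrier of J chain-linked IgA, read 9.83, 9.92 and 10.15 after saline and 9.77, 9.61 and 9.45 after bleomycin (-0.36, limma adjusted p = 0.169). The 5 that rose were the IgG receptors Fcgr3 (1.74), Fcgr1 (1.58), Fcgr2b (1.51) and Fcgr4 (1.27), and Fcer1g (1.06), the signalling chain of activating Fc receptors, with limma adjusted p from 0.00116 to 0.0151. Myeloid cells carry these, and Fcgr2b, an inhibitory receptor, is also that of B cells. Without _s_at and _x_at probe sets Fcgr2b differed by 0.43 and did not pass.

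**Figure D4:**
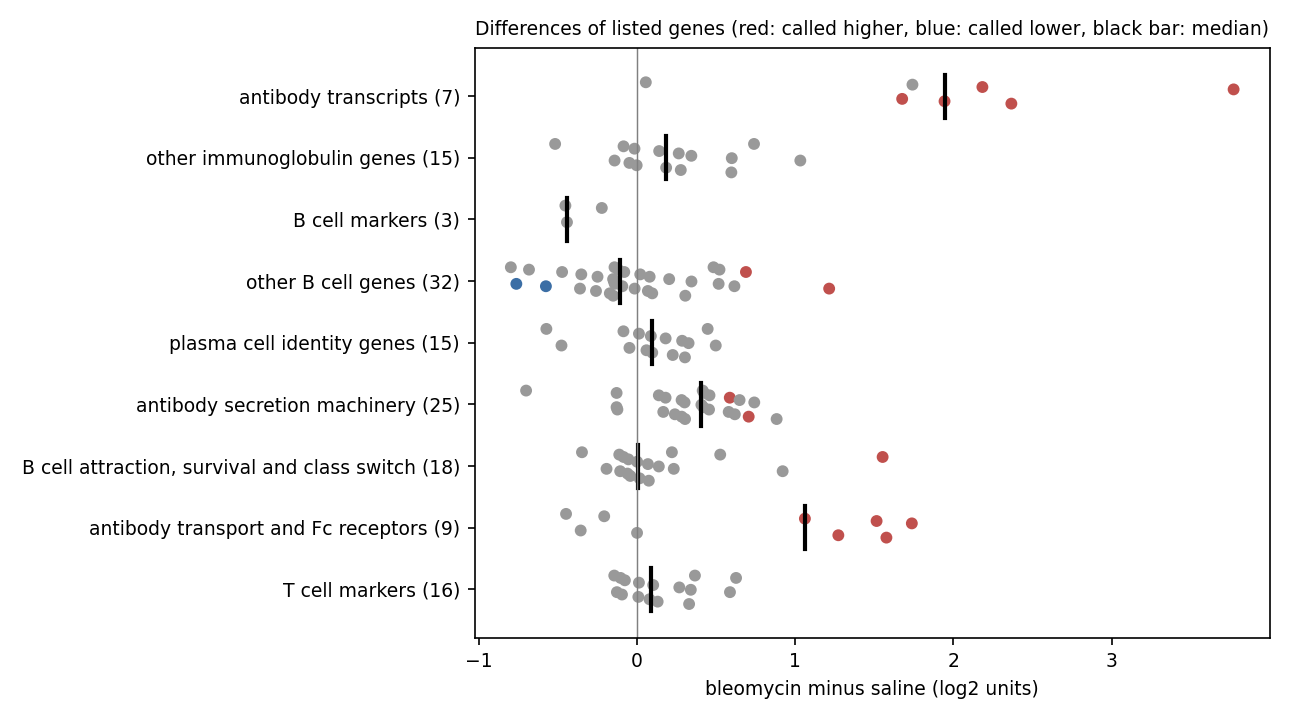
Difference between bleomycin and saline (log2 units) of every measured gene of 9 lists, 1 point per gene at its brightest probe set, red where called higher, blue where called lower and grey otherwise; black bars are list medians. The antibody transcripts (median 1.94), chosen with this contrast known, stand to the right of the B cell markers (-0.44) and other B cell genes (-0.11). They also stand to the right of the plasma cell identity genes (0.10) and the other immunoglobulin genes (0.18). Of those 15 other immunoglobulin genes, 4 were kept by the filter on dim probe sets. Antibody transport and Fc receptors have a median of 1.06.

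There were 15 other immunoglobulin genes with their own probe set. In limma 0 were called, while 5 were higher and 0 lower at an unadjusted p under 0.05, and 6 had all bleomycin arrays above the saline arrays. Igkv14-111 read 5.24, 5.42 and 5.61 after saline and 6.79, 5.81 and 6.77 after bleomycin (1.03, limma adjusted p = 0.0568). Igkv6-14 differed by 0.74 (limma adjusted p = 0.0706). The median was 0.18. Most of the 15 are dim: the filter on dim probe sets kept 4 of them, with a median of 0.26. In the dim ones a difference may not be seen.

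Markers of other lymphoid cells give the setting. Of 16 measured T cell markers 0 were called in limma, with 2 higher and 0 lower at an unadjusted p under 0.05. Their mean level lay between 7.11 and 7.62 on the saline arrays, lowest on saline A, and between 7.43 and 7.56 on the bleomycin arrays. Cd3e differed by -0.10, Cd8a by -0.13, Thy1 by 0.59 and Il7r by 0.63, and none of them passed with all arrays. Without saline B Il7r differed by 0.85 and passed (limma adjusted p = 0.0465). Of 7 measured genes of lymph node stroma and high endothelium, 1 rose: Clu, which many lung cells express (0.95, limma adjusted p = 0.00328). The mean of that list was 7.09 to 7.40 after saline and 7.34 to 7.44 after bleomycin. Its defining marker Glycam1 lay between 5.39 and 5.58 on all arrays. None of the 5 measured markers of B cell precursors or of the 7 of plasmacytoid dendritic cells was called in limma, with 0 and 2 of them higher at an unadjusted p under 0.05. The part of lymph node tissue, or of the low saline A, in the antibody values was not tested.

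Profiles over the 6 arrays were compared by root mean square distance, each gene taken from its own saline mean. Outside the 10 genes, those nearest to Jchain were Ccl9, Slc26a4, Eln, Ms4a6d and Timp1, at 0.23 to 0.34 log2 units. Igha lay at 0.24 from Jchain, within that range. The distance includes the group difference, so a gene near Jchain (2.37) must have a similar difference. In these 5 genes it was 2.23 to 2.55. Outside the 10 genes, those nearest to Cd79b were Ighv14-2 (0.13), Atrx (0.22), Cxcr5 (0.25), Blk (0.25) and Pnn (0.26), and Cd79a lay at 0.25. Cxcr5 and Blk are B cell genes. The probe set annotated to the heavy chain variable segment Ighv14-2 read 9.13, 9.77 and 9.49 after saline and 8.23, 9.22 and 9.38 after bleomycin, with the same low bleomycin D as Cd79b. Its difference was -0.52, with a limma adjusted p of 0.348.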

How the data were processed

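Total RNA of 6 lungs was labelled as cRNA and hybridised to 1 MOE430A array each. The authors deposited 1 log2 value per probe set, made by RMA with quantile normalization, as stated in the design text and, per the submitters' processing notes, in the list of tools. Its version and the chip definition behind it are not given in the sources used, and the log base was taken from the range of the values (3.54 to 14.42).

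Of 22690 probe sets, 64 controls were left out and 22626 were tested. Names came from GEO's platform annotation, updated by Entrez ID through the RefSeq table of GRCm38.p6 (20351 matched). 1 symbol was listed for 20380 probe sets, several for 691 and none for 1555. A gene was read by its probe set with the highest mean. The groups were compared by limma 3.58.1 under R 4.3.3 (lmFit, then eBayes, no covariates), with Benjamini-Hochberg adjustment over all tested probe sets and a threshold of 0.05, after a check on simulated data. Samples called replicates are separate mice per the design text, and the letters A to F pair no arrays across groups. A difference is the bleomycin mean less the saline mean on the log2 scale, and its standard error is limma's moderated one. A fold is the power of 2 of a difference. Motif matches and figures were made in Python 3.11.15 (matplotlib 3.10.9). The 10 genes and the lists were chosen with earlier results of these data known. The named genes are all 10, then, of each list, every called gene (the 4 largest where over 5 were called) and the 2 largest differences not called, a fixed set of marker genes, and the 5 nearest profiles to Jchain and Cd79b. Iglon5 is no immunoglobulin gene and was left out of that list. Listed genes without a probe set of 1 symbol are not analysed here. The alternatives were a filter on dim probe sets, a trended robust prior, weighting of arrays, a second quantile normalization, ribosomal protein genes as the centre, the mean of all probe sets of a gene, leaving out _x_at and _s_at probe sets, and leaving out each array. Single probe sets of the 10 genes and the counts read without bleomycin D were chosen after seeing the data.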

Additional observations from a re-analysis of the deposited data

How the results depend on the processing

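When each array was left out in turn, 4 or 5 of the 7 antibody transcripts were called higher (5 with all arrays) and 0 of the 3 B cell markers were called. The median antibody difference exceeded the median B cell difference by 1.66 to 2.87 log2 units. Without _x_at and _s_at probe sets 2 antibody transcripts were called, that excess was 1.03, and Igkv9-120 read -0.048 and Iglv1 -0.17 through other probe sets. The number of all genes called ran from 184 to 549 with an array left out, against 694. Other B cell genes called ran from 0 to 3 there, against 4, and T cell markers from 0 to 1. Secretion machinery genes called ran from 0 to 3, against 2, and were 5 with array weights, 0 with ribosomal centring and 1 with repeated quantile normalization. Other immunoglobulin genes called ran from 0 to 1 with an array left out, and were 2 with the trended robust prior and 1 each with repeated quantile normalization and the mean of all probe sets. Plasma cell genes called were 1 with array weights and 1 with repeated quantile normalization. With the mean of all probe sets, 2 attraction genes and 1 T cell marker were called. Ribosomal centring moved the median of all genes from -0.04 to -0.16 log2 units. The cause of these changes was not tested. With 3 arrays a group and no detection calls, small differences in dim transcripts are not resolved.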
